A study of Drosophila melanogaster with 3 samples.

Results

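The odorant receptor (Or), gustatory receptor (Gr) and ionotropic receptor (Ir) genes of Drosophila melanogaster were examined for binding of the transcription factor pdm3. The set held Orco and every protein-coding gene of the dm6 annotation whose symbol starts with Or, Gr or Ir followed directly by a digit, which gave 180 of the 13945 protein-coding genes on the 6 chromosome arms. Each of the 3 families had 60 genes, with Orco counted among the Or genes. Gene spans had a median of 1691.5 bp for the receptor genes (Or 1466.5 bp, Gr 1397 bp, Ir 1908 bp), against 2166 bp for all protein-coding genes.

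The samples were whole prepupae of a transgenic line that stably expresses pdm3 with GFP at its C-terminus, collected at the white prepupa stage, with males and females pooled. All 3 biological replicates carried the fusion, formed 1 group and were precipitated with an antibody against GFP, and chromatin had been sonicated to 200 to 800 bp. Chromatin came from every tissue of the animal, so binding in a small number of sensory neurons and binding at low level in many cells cannot be told apart. The deposited peak lists hold no read counts, and the depth of each library is unknown.

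Olfactory neurons express 1 or a few of these receptor genes, and taste neurons often several. Or proteins form ion channels with the co-receptor Orco, Ir proteins descend from ionotropic glutamate receptors and work with co-receptors such as Ir8a, Ir25a and Ir76b, and Gr proteins detect sugars, bitter compounds and, with Gr21a and Gr63a, carbon dioxide. pdm3 is a POU-homeodomain protein known for its part in the expression of Or42a and in the wiring of olfactory neurons of the adult. At the white prepupa stage larval sense organs are still present, while adult receptor genes are switched on later in pupal life.

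Receptor genes carried few of the reproducible binding sites. In the list of 8164 reproducible peaks of all replicates, called optimal below, 8 of 180 receptor genes had a summit inside them or at most 1 kb away (4.44%, 95% Wilson interval 2.27 to 8.52%), against 28.3% of all protein-coding genes. They were Or7a, Or9a, Or85f, Or88a, Gr89a, Ir68b, Ir94e and Ir94h. By family the counts were 4 of 60 Or genes (6.67%, Wilson interval 2.62 to 15.9%), 1 of 60 Gr genes (1.67%, 0.295 to 8.86%) and 3 of 60 Ir genes (5%, 1.71 to 13.7%). The 3 intervals overlapped one another and lay below the value of all genes. Inside the gene itself none of the 180 receptor genes had an optimal summit, which allows a share of up to 1.67% (3 counts of 180), against 14.2% of all genes. These intervals and limits cover counting error over genes only.

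The sequence under 4 of these summits is shown because those peaks were also in the upper part of all 3 replicates' lists. The peak at Ir68b was too, and its window is not printed because it overlaps an exon of yps. Each is the 101 bases centred on the optimal summit, plus strand of dm6, read from the RefSeq assembly, and capitals mark TAATTA, a core word of homeodomain sites. The windows are chr3R:9400060-9400160 at Or85f, chr3R:14108653-14108753 at Or88a, chr3R:16497535-16497635 at Gr89a and chr3R:23486860-23486960 at Ir94h. All 4 lie outside the exons of protein-coding genes.
Or85f: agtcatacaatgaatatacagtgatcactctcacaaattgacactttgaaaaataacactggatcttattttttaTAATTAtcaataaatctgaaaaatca
Or88a: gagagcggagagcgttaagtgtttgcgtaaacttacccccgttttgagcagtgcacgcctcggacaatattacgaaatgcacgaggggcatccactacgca
Gr89a: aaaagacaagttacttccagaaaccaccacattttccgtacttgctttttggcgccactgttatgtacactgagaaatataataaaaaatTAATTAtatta
Ir94h: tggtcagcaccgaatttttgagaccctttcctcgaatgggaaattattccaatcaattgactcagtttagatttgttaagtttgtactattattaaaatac

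TAATTA was found under 2 of the 8 optimal summits at receptor genes, those of Or85f and Gr89a, and under 10.1% of all optimal summits. The POU octamer ATGCAAAT was under 0 of these 8 summits and under 1.59% of all, and its 5′ core ATGCAA, which lies within the octamer, was under 0 of 8 and 10% of all. The DREF word TATCGATA was under 0 of 8 and 0.784% of all. Both strands were searched for every word. The median GC content of the 101-base windows was 31.7% at the receptor genes and 31.7% over all optimal summits.

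**Figure D1:**
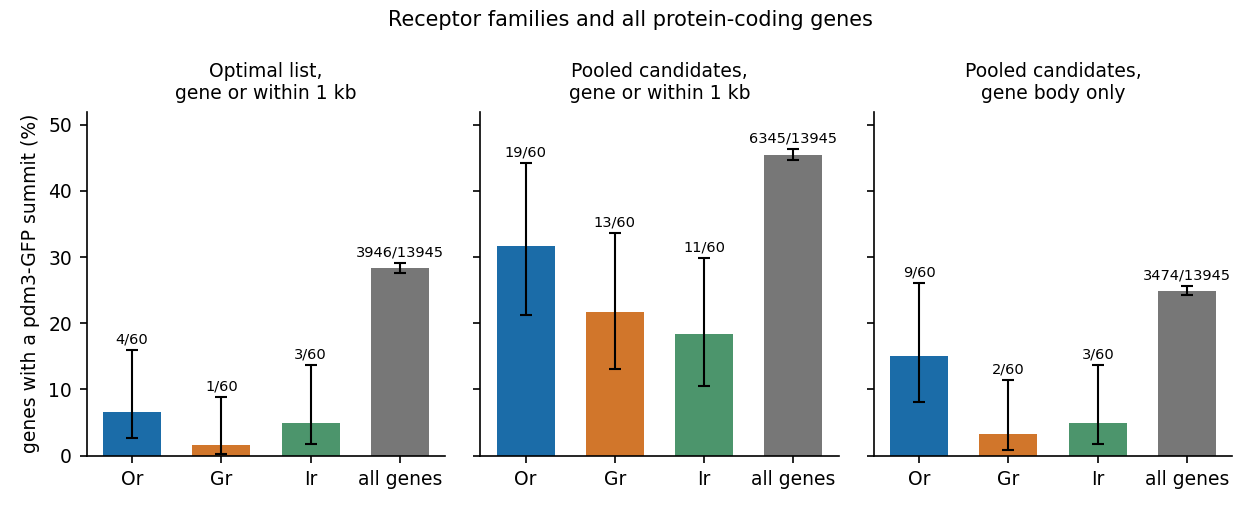
Share of genes with a pdm3-GFP summit (percent, y axis) for the Or, Gr and Ir families and all protein-coding genes, in the optimal list and the pooled candidate list. Bars give the share, error bars the 95% Wilson interval, and labels the number of genes with a summit over the number of genes: 4, 1 and 3 of 60 genes in the optimal list, all families below the 28.3% of all genes.

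The share of receptor genes was also low among genes of similar span. Among genes with a span of 1 to 3 kb, 8 of 157 receptor genes had an optimal summit in or within 1 kb (5.10%), against 20.3% of all such genes. Counted per length, the receptor genes and 1 kb to each side held 1.06 optimal summits per 100 kb (Or 1.87, Gr 0.531, Ir 0.830), against 6.67 per 100 kb of all gene windows and 6.10 per 100 kb of the whole arms. Ir40a and Ir41a have unusually long spans of 24851 and 104437 bp. Without both, the Ir windows held 1.32 optimal summits per 100 kb.

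Each replicate gave a low share of receptor genes by itself. In the 8164 highest-ranked candidates of replicates 1, 2 and 3, 10, 9 and 13 receptor genes had a summit within 1 kb. These are 5.56%, 5% and 7.22% of the 180 receptor genes, against 30.4%, 29.7% and 32.5% of all genes. The mean over replicates was 5.93% ± 1.16 for receptor genes and 31.2% ± 1.44 for the other genes (SD, n = 3 each). The difference of -25.3 ± 0.290 percentage points had the same sign in 3 of 3 replicates (exact paired permutation test, two-sided, p = 0.25, the smallest that 3 replicates allow). At this length the families had 5.56% ± 2.55 (Or), 5% ± 0 (Gr) and 7.22% ± 0.962 (Ir). Exact paired permutation tests between families gave adjusted p between 0.75 and 1 over 3 pairs. With 3 replicates no pair could have given a p below 0.25, so these tests cannot decide whether families differ. Gr minus Ir was -2.22 ± 0.962 percentage points, with the same sign in 3 of 3 replicates. The SD of 0 comes from 3 Gr genes in each replicate, which were not the same genes, and Gr89a alone was in all 3.

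The authors' longer lists of 30000 candidates, which include peaks and background as deposited, gave higher shares. In the pooled candidates 43 of 180 receptor genes had a summit within 1 kb (23.9%, Wilson interval 18.2 to 30.6%), against 45.5% of all genes. The families had 19 Or genes (31.7%, 21.3 to 44.2%), 13 Gr genes (21.7%, 13.1 to 33.6%) and 11 Ir genes (18.3%, 10.6 to 29.9%). Within the gene itself the pooled candidates had summits in 14 receptor genes (7.78%), of which 9 were Or, 2 Gr and 3 Ir genes, against 24.9% of all genes.

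The order of the families in the pooled list was not that of the replicates. Over the whole replicate lists 31.7%, 33.3% and 22.8% of receptor genes had a summit within 1 kb in replicates 1, 2 and 3, against 50.5%, 50.7% and 52.9% of all genes. Or genes had 30.0%, 33.3% and 21.7%, Gr genes 35.0%, 40.0% and 23.3%, and Ir genes 30.0%, 26.7% and 23.3%. Replicate 3 was the lowest in each family although it was the highest over all genes. Gr genes averaged 32.8% ± 8.55, Or genes 28.3% ± 6.01 and Ir genes 26.7% ± 3.33 (SD, n = 3). The largest mean difference between families, Gr minus Ir with 6.11 ± 6.74 percentage points, was smaller than its own spread. The exact paired permutation test of this pair gave p = 0.5 (two-sided, adjusted p = 0.75 over 3 pairs, smallest possible p 0.25). Or minus Gr was -4.44 ± 2.55 percentage points, with the same sign in 3 of 3 replicates (-5, -6.67 and -1.67). For Or minus Gr the exact paired permutation test gave p = 0.25 (two-sided, adjusted p = 0.75 over 3 pairs). Or minus Ir was 1.67 ± 4.41 percentage points, without a common sign. As no pair could have given a p below 0.25, these tests cannot decide whether families differ. For the receptor genes together the difference from the other genes was -22.4 ± 7.08 percentage points (exact paired permutation test, p = 0.25), with -30.6 in replicate 3 and -19.1 and -17.6 in replicates 1 and 2.

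Few receptor genes had a summit in every replicate. Of the 180 receptor genes, 87 had no summit within 1 kb in any whole replicate list, 49 had one in 1 replicate, 23 in 2 and 21 in all 3 replicates. As shares these were 48.3%, 27.2%, 12.8% and 11.7% of receptor genes, against 35.5%, 14.2%, 11.02% and 39.3% of all genes. Summits in 1 whole list alone were thus more common at receptor genes. In the top lists the counts were 162, 9, 4 and 5 genes. Those are 90%, 5%, 2.22% and 2.78% of receptor genes, against 61.99%, 7.49%, 6.5% and 24.0% of all genes. There, summits in 1 list alone were less common as a share of all receptor genes, as were summits in any list. Among genes with any top-list summit, 1 list alone was the most frequent class at receptor genes (9, 4 and 5 genes in 1, 2 and 3 lists). Over all genes it was all 3 lists (1044, 907 and 3350 genes). These comparisons were not tested over genes.

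The gap between receptor genes and all genes depended on the distance searched. Within 5 kb of the gene 26.7% of receptor genes had an optimal summit, against 48.2% of all genes, but 70.6% had a pooled candidate summit, against 69.7% of all genes, so that in the pooled list the lower share of receptor genes was lost at that distance. The median distance to the nearest optimal summit was 12110.5 bp for receptor genes (Or 14416 bp, Gr 10190 bp, Ir 11273 bp) and 5457 bp for all genes. To the nearest pooled candidate it was 2859.5 bp for receptor genes (Or 1720 bp, Gr 3199.5 bp, Ir 3316 bp) and 1508 bp for all genes. Or genes thus had the longest median distance to an optimal summit and the shortest to a pooled candidate. The gene farthest from an optimal summit was Ir41a, an antennal gene needed for the detection of polyamines, at 271981 bp, followed among the others by Gr92a at 84895 bp.

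**Figure D2:**
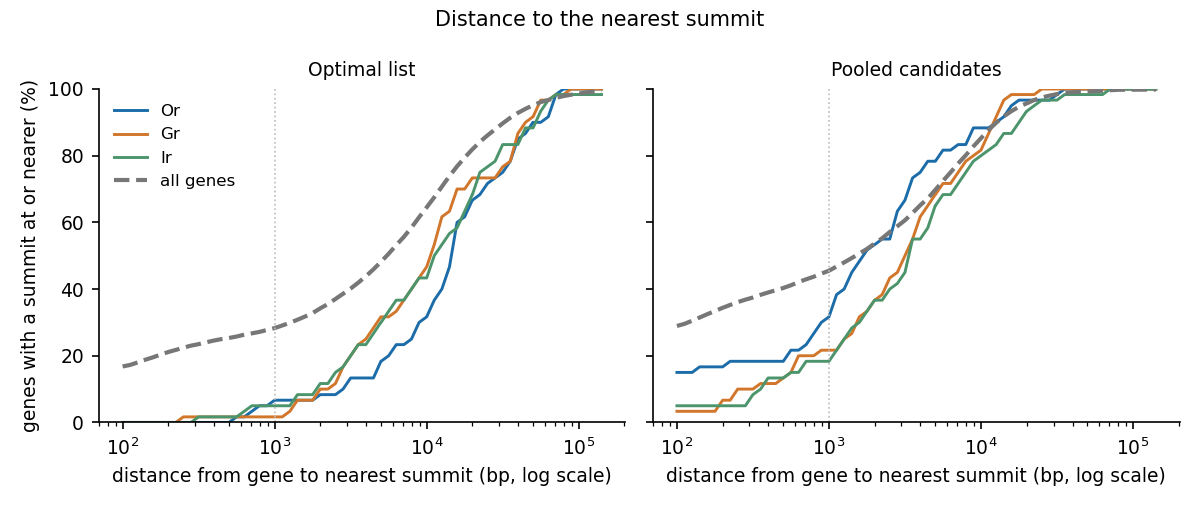
Cumulative share of genes (percent, y axis) with the nearest summit at or nearer than the distance on the x axis (bp, log scale), for the optimal list and the pooled candidates, with 1 line for each family and a dashed line for all protein-coding genes. The dotted vertical line marks 1 kb. In the optimal list the families reach 18.3% (Or), 31.7% (Gr) and 30.0% (Ir) at 5 kb, below the 48.2% of all genes, while in the pooled list they reach 78.3% (Or), 68.3% (Gr) and 65.0% (Ir) beside 69.7% of all genes.

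The 8 optimal summits at receptor genes all lay outside protein-coding genes, and at 5 of them the nearest annotated start site was that of a gene that is no receptor. On the receptor's own strand 3 lay on the 5′ side and 5 on the 3′ side. Among all genes with an optimal summit, 53.3% had one on the 5′ side, 19.8% on the 3′ side and 50.2% inside the gene, and a gene could count in more than 1 class. For 6 of the 8 (75%) the summit also lay in or within 1 kb of another protein-coding gene, against 42.9% of all gene and summit pairs, so the gene that these 6 belong to is uncertain. All pairs include summits inside genes, where none of the 8 lay, so these shares do not compare like with like. Leaving out summits shared with a gene that is no receptor left Gr89a and Ir94h, 1.11% of the 180 receptor genes.

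Signal values are the authors' own per-peak values and are used here to rank peaks within a list. The highest at a receptor gene was 430, at Ir68b, an ionotropic receptor gene on 3L. That peak (chr3L:12125092-12125314, rank 1156 of 8164) had its summit 300 bp beyond the 3′ end of Ir68b and 37 bp from the start of yps, which encodes a Y-box RNA-binding protein. The overlapping candidates ranked 2185, 873 and 1163 of 30000 in replicates 1, 2 and 3. It lay in the top list of all 3 replicates, and the start of yps is closer to it than Ir68b.

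Ir94h, a member of the Ir94 group of genes, of which several are expressed in taste neurons, had the next highest value. Its peak (chr3R:23486825-23487080, signal value 376, rank 1431) had its summit 591 bp upstream of Ir94h. The replicates ranked it 2019, 1616 and 1220. No other gene lay within 1 kb of this summit, and the nearest annotated start site was that of Ir94h itself. Ir94e, which is expressed in taste neurons of the labellum, had a weak peak (chr3R:23407835-23408254, signal value 95.1, rank 7717) with its summit 643 bp beyond the 3′ end and within 1 kb of CG4374. Its replicate ranks were 7754, 6782 and 10882, so replicate 3 held it outside the top list.

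Or85f, an odorant receptor gene of the adult antenna, had a peak with a signal value of 303 (chr3R:9400015-9400242, rank 1948). The summit lay 559 bp beyond the 3′ end of Or85f, 57 bp from the start of CG34117 and within 1 kb of RpL34b, a ribosomal protein gene. The replicates ranked it 2160, 2120 and 1973, the closest agreement among the 4 Or peaks. Gr89a, one of the receptors found in all bitter taste neurons of the labellum, was the one Gr gene with an optimal summit. Its peak (chr3R:16497551-16497691, signal value 258, rank 2502) lay 232 bp beyond the 3′ end with no other gene within 1 kb. The replicate ranks were 2701, 2607 and 2648, on average 8.84% ± 0.157 of the list from its top (SD, n = 3), the smallest spread among the 8 peaks.

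Or88a, a receptor of trichoid sensilla that detects odours of other flies, had a peak of middle rank (chr3R:14108493-14108912, signal value 170, rank 4178). Its summit lay 742 bp upstream of Or88a and 382 bp from the start of CG12402. The replicates differed more here, with ranks of 7685, 3105 and 4424. Or9a and Or7a, odorant receptor genes of the antenna on the X, had weak peaks. The peak at Or9a (chrX:10460466-10460885, signal value 98.9, rank 7409) had its summit exactly 1000 bp upstream, at the edge of the distance used, and 60 bp from the start of Neb-cGP. Overlapping candidates ranked 8739, 7635 and 8044, but the replicates' own summits lay within 1 kb of Or9a in replicate 3 alone. The peak at Or7a (chrX:8163420-8163839, signal value 90.8, rank 8056) lay 636 bp beyond the 3′ end, within 1 kb of CG10761, with replicate ranks of 6727, 15730 and 7860.

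**Figure D3:**
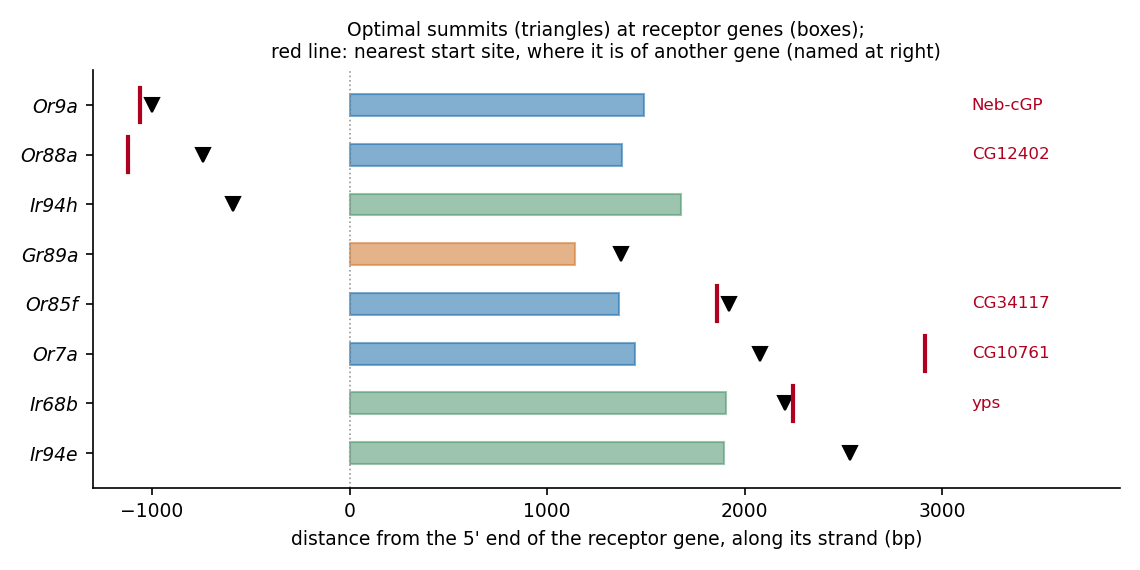
Position of the optimal summit (black triangle) at each of the 8 receptor genes, in bp from the gene's 5′ end along its own strand. Boxes give the gene's span in the colour of its family (Or blue, Gr orange, Ir green), and a red line marks the nearest annotated start site where it is that of another gene, named at the right. No triangle falls inside a box, and at Or9a, Or85f and Ir68b the triangle lies 60, 57 and 37 bp from the start of the other gene.

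The 8 peaks were spread over the optimal list. Those of Ir68b, Ir94h, Or85f and Gr89a lay in its first 30.6% by rank, that of Or88a at 51.2%, and those of Or9a, Ir94e and Or7a between 90.8% and 98.7%. Their median signal value was 214, against 173 for all 8164 optimal peaks. At least 50% of the peak was covered by a candidate in all 3 whole replicate lists for 8 of 8, against 90.2% of all optimal peaks. With the replicate lists shortened to 8164 candidates this held for 5 of 8 (62.5%), namely Or85f, Or88a, Gr89a, Ir68b and Ir94h, against 61.7% of all optimal peaks.

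Just outside 1 kb, the 2 nearest genes of each family had their nearest optimal summit at 1189 bp (Gr97a) and 1325 bp (Gr39b), at 1402 bp (Ir67b) and 1410 bp (Ir94g), and at 1947 bp (Or45b) and 2779 bp (Or47b). Just inside were Or9a at 1000 bp and Or88a at 742 bp. The Ir94g value belongs to the same peak as that of Ir94h, since the genes are neighbours. No Or gene had an optimal summit between 1000 and 1947 bp.

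Strong candidates at other receptor genes appeared in some replicates and not in the pooled list. At Gr32a, a receptor of bitter taste neurons that also detects pheromones, replicates 2 and 3 held candidates of rank 2104 and 2014 with summits 743 and 752 bp upstream. Replicate 1, the pooled list and the optimal list had none within 1 kb. At Ir31a, an antennal ionotropic receptor, replicate 3 held a candidate of rank 1843, 60 bp beyond the 3′ end, and the other lists had none. Such cases were a small part of each list: 4.61%, 4.97% and 6.46% of the top 8164 candidates of replicates 1, 2 and 3 overlapped no pooled candidate.

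**Figure D4:**
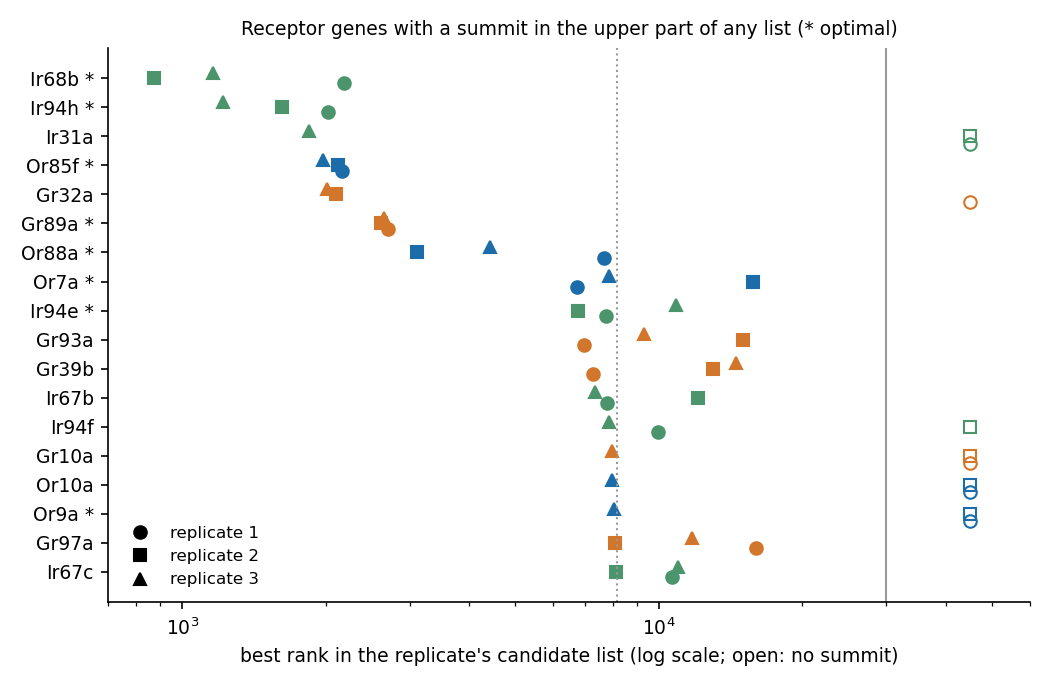
Best rank (x axis, log scale, low ranks are strong) of a summit in or within 1 kb of the gene in the candidate list of each replicate, for the receptor genes with an optimal summit (asterisk) or a summit in a replicate's top list. Circles, squares and triangles are replicates 1, 2 and 3, colours give the family (Or blue, Gr orange, Ir green), open symbols mean no summit, the dotted line is rank 8164 and the solid line rank 30000. Or85f, Gr89a, Ir68b and Ir94h have all 3 symbols at or left of rank 2701, while Gr32a and Ir31a are missing in 1 and 2 replicates.

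Below the optimal cutoff, 35 receptor genes had a pooled candidate within 1 kb and no optimal summit. Their best rank had a median of 19995 of 30000, with a range of 8217 to 29665, against a median of 15462 for the 2399 protein-coding genes of this kind. The medians by family were 24527 for 15 Or genes, 14352.5 for 12 Gr genes and 14651.5 for 8 Ir genes. The Or family had the most such genes and the weakest candidates by median rank. With the 8 optimal genes included, the median over 43 receptor genes was 14280, against 5200 for all genes with a pooled candidate.

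Or67c, an odorant receptor gene of the antenna, had the highest candidate among Or genes without an optimal summit, at rank 8681 pooled and 8736, 8427 and 9564 in replicates 1, 2 and 3. Gr93a, which is needed for the taste of caffeine, ranked 8339 pooled and 6969, 15012 and 9325 in the replicates. Gr77a ranked 10226 pooled and 9194, 11473 and 10444, and Gr93b 10439 pooled and 10482, 13765 and 10701. These 4 genes had a candidate in every replicate, and none of them lay within the first 8164 in all 3. Or10a, the receptor for methyl salicylate, and Gr10a have the same annotated span, so both list the same candidate of rank 11009, which replicate 3 held at rank 7989 and replicates 1 and 2 did not hold within 1 kb.

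Ir67b had 4 pooled candidates within 1 kb, the best of rank 8217, with replicate ranks of 7768, 12064 and 7336. Ir94f ranked 9274 pooled, 9950 in replicate 1 and 7857 in replicate 3, with no summit in replicate 2. Ir67b and Ir94f both have another receptor gene of their group beside them. Of the 180 receptor genes, 70 had another receptor gene within 1 kb and 85 had a gene that is no receptor within 1 kb. An optimal summit was within 1 kb of 5 of these 85 (5.88%) and of 3 of the 95 others (3.16%), against 29.3% and 21.3% of all protein-coding genes with and without such a neighbour. A pooled candidate was within 1 kb of 16.5% of the 85 and 30.5% of the 95, against 43.7% and 57.3% of all genes with and without one. The pooled split thus ran the same way in receptor genes and in all genes. For optimal summits the counts of 5 and 3 genes are too few to give a direction. With and without such a neighbour, Or genes had 10.3% and 3.23%, Gr genes 3.33% and 0%, and Ir genes 3.85% and 5.88%.

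Of the 5 co-receptor genes Orco, Ir8a, Ir25a, Ir76b and Ir93a, 0 had an optimal summit within 1 kb (Wilson interval up to 43.4%, which includes the 28.3% of all genes). Orco, the co-receptor of all other Or proteins, had a pooled candidate 760 bp upstream with a signal value of 71.8 and rank 10106, and replicate ranks of 10820, 14507 and 11812. Ir76b had candidates of rank 28283 and 24855 in replicates 1 and 2 and none in replicate 3 or the pooled list. Ir8a, Ir25a and Ir93a had none within 1 kb in any list. Their nearest optimal summits lay at 11648 bp (Ir8a), 2563 bp (Ir25a) and 15348 bp (Ir93a).

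Among 25 Or genes expressed in larvae, Or7a alone had an optimal summit (4%, against 28.3% of all genes), and 5 had a pooled candidate within 1 kb (20%, against 45.5% of all genes), among them Or24a at rank 16350. Among the 7 Or genes of the maxillary palp none had an optimal summit (Wilson interval up to 35.4%, which includes the 28.3% of all genes). Or42a had the one pooled candidate among them (14.3%, against 45.5% of all genes). Or42a, the receptor gene for which pdm3 is best known, had that candidate inside the gene at rank 29665 of 30000, one of rank 21478 in replicate 1 and none in replicates 2 and 3. Its nearest optimal summit was 8688 bp away. Of 12 Or genes of trichoid sensilla Or88a had an optimal summit (8.33%, Wilson interval 1.49 to 35.4%, which also includes the 28.3% of all genes). Or65a, Or65b, Or65c and Or88a had pooled candidates (33.3%, against 45.5% of all genes), with Or65a at rank 10392.

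The functional groups of Gr and Ir genes stand beside shares over all genes of 28.3% for optimal and 45.5% for pooled summits. Of the 9 sugar receptor genes 0 had an optimal and 0 a pooled summit within 1 kb (Wilson interval up to 29.9% for each, which includes the optimal share of all genes). In the whole lists of replicates 1, 2 and 3, 4, 5 and 0 of them had a candidate, against 50.5%, 50.7% and 52.9% of all genes. Clustered genes shared candidates, so these counts are not of separate sites. Gr64b, Gr64c and Gr64d shared that of rank 27169 in replicate 1, and Gr64d, Gr64e and Gr64f that of rank 21485 in replicate 2. Of the carbon dioxide receptors Gr21a had a pooled candidate of rank 18368, and in the replicates none, rank 19544 and rank 18790, while Gr63a had none in the pooled list and ranks 18088 and 21460 in replicates 1 and 3. Of 5 common bitter receptor genes Gr89a had an optimal summit, and Gr33a and Gr66a had no summit in any list. Of 17 antennal Ir genes 0 had an optimal summit (Wilson interval up to 18.4%), and Ir64a, which acts in acid sensing, had the one pooled candidate, at rank 22525. The lists are small, and their intervals reach well above the share of the whole receptor set.

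The words of POU and homeodomain sites were more frequent at the starts of receptor genes than at those of all genes. Whether pdm3 binds these words was not tested. In the 300 bases that cover 250 before and 50 after the annotated gene start, the octamer ATGCAAAT was found on either strand in 16 of 180 receptor genes (8.89%; Or 13.3%, Gr 6.67%, Ir 6.67%), against 3.47% of all genes. The core ATGCAA, which every octamer contains, was in 31.1% of receptor genes (Or 25%, Gr 30%, Ir 38.3%) and 21.5% of all genes, so that Or genes had the highest share with the octamer and the lowest with its core. TAATTA was in 44.4% of receptor genes (Or 43.3%, Gr 58.3%, Ir 31.7%), against 20.4% of all genes. TATCGATA, the DREF word found at many broadly expressed genes, was in 1 of 180 receptor genes (0.556%), against 9.36% of all genes. The median GC content of these windows was 39.3% for receptor genes and 38.0% for all genes. These counts describe letters in the reference sequence and no list of peaks.

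None of the 16 receptor genes with the octamer had an optimal summit within 1 kb. With 4.44% for all receptor genes, 16 genes are too few to tell their share from that one. Of the 484 protein-coding genes with the octamer 22.3% had one, against 28.3% of all genes. For ATGCAA and TAATTA the shares over protein-coding genes with the word were 27.8% and 26.5%. A pooled candidate was within 1 kb of 6 of the 16, against 23.9% of all receptor genes and 45.5% of all genes. The octamers of these 6 are printed because they are the receptor genes with both the word before the start and a candidate nearby. Each run is 30 bases along the gene's own strand, from the RefSeq dm6 sequence, with the octamer in capitals (ATTTGCAT is the same word on the opposite strand).
Ir64a: acgggggcgtcATTTGCATgtaaacttatt
Or65a: gcacacctactATTTGCATtggatcggatt
Or65c: aaaaagattatATGCAAATaaatttctatt
Or67a: tagcgacagcaATTTGCATcttcactttca
Ir67b: ataatgcctctATGCAAATaagctacatga
Gr98a: gcaataaaggcATGCAAATttatgtggggc

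At Or65c (octamer at chr3L:6327390-6327397, 218 bases before the start) the nearest pooled summit was 1 bp from the word, and at Or67a (chr3L:9528872-9528879, 195 bases before the start) it was 52 bp away. Both candidates were weak, with ranks of 28456 and 21339 of 30000. No replicate list held a summit within 1 kb of Or65c, while all 3 held one within 1 kb of Or67a. At the other 4 genes the nearest pooled summit was between 693 and 2812 bp from the octamer. Over all 16 genes the words occupy 15 positions, since Gr64d and Gr64e share 1, and 1 of the 15 lay within 50 bp of a pooled summit. Or19a and Or19b carry the same 30 bases and are near-identical copies, with 29.1% and 25.5% of the 31-base words of their windows unique in the genome, so most 31-base words there cannot be assigned to 1 of the copies.

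Repeated sequence was uncommon at receptor genes. In 10 of 180 receptor genes (5.56%) fewer than 90% of the 31-base words of the gene and 1 kb to each side were unique on the assembly, against 7.39% of all genes, and the median was 100% for receptor genes and 100% for all genes. None of the 8 genes with an optimal summit was among the 10. Ir93a (54.0% unique words) and Ir41a (70.4%), both named above for summits that were absent or far away, were among them. Whether repeats lowered the calls at these genes was not tested. Median GC content of these windows was 42.7% for receptor genes and 43.8% for all genes. A control entered each list according to the labels, but no coverage was analysed here, so how well each receptor gene was covered was not tested.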

How the data were processed

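The data are peak lists from chromatin immunoprecipitation with sequencing in 3 biological replicates of 1 group. According to the labels, candidate lists were made from each replicate, and from all replicates pooled, with 1 control, and the optimal list holds peaks kept by an analysis of irreproducible discovery rate. For aligner, caller and threshold, nothing was found in the labels or files, that is, not given in the sources used here. Depth is unknown. The deposited signal value per peak ranks peaks within a list, and its normalization is not stated. The deposited −log10 q-value was read and not used to filter. Lists on dm6 were used, and those on dm3 were not. Every column used belongs to 1 sample or the pool, with 0 columns of other samples.

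Genes came from Ensembl release 115 and sequence from RefSeq. Summits were assigned to every gene they lie in or within 1 kb of. Shares carry 95% Wilson intervals (a count of 0 allows 3), replicates were compared by exact paired permutation tests, and replicate lists were cut to the 8164 peaks of the optimal list. The code was tested on simulated data (scipy 1.17.1 under Python 3.11.15, with pandas 2.3.3, numpy 2.4.6 and matplotlib 3.10.9). Replicates come from biological samples named as such in the labels.

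Genes named were those with an optimal summit, the co-receptors, Or42a, the 5 of each family with the highest pooled signal, the 2 of each family just outside 1 kb, those in the top list of all replicates, and the highest of each functional list. Gr32a, Ir31a, Gr92a, the octamer genes and the members of functional lists named without a summit were named after their values were seen. The members and lists were chosen with earlier results of these data known.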

Additional observations from a re-analysis of the deposited data

How the results depend on the processing

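Shares below are of all 180 receptor genes, then Or, Gr and Ir. For optimal summits they were 4.44, 6.67, 1.67 and 5% within 1 kb, 0, 0, 0 and 0% inside genes, 26.7, 18.3, 31.7 and 30.0% within 5 kb, and 1.67, 3.33, 0 and 1.67% within 1 kb of a start site. They were 1.11, 0, 1.67 and 1.67% without summits shared with another kind of gene, and 2.22, 1.67, 1.67 and 3.33% in the higher-signal 50% of peaks. For pooled candidates they were 23.9, 31.7, 21.7 and 18.3% within 1 kb, 7.78, 15.0, 3.33 and 5% inside genes, 70.6, 78.3, 68.3 and 65.0% within 5 kb, and 14.4, 20, 11.7 and 11.7% near start sites. They were 17.2, 23.3, 16.7 and 11.7% without shared summits, and 12.8, 13.3, 13.3 and 11.7% in the higher-signal 50%. All genes had 69.7% within 5 kb in the pooled list, so the lower share of receptor genes ended there. In the other settings with a value for all genes, receptor genes stayed below all genes in both lists.

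Each replicate was left out of a filter in turn, with peaks required in the lists of both other replicates. The optimal and pooled lists themselves still came from all 3 replicates. This filter can therefore only keep or lower a share, and it does not show independence from the replicate left out. Optimal peaks were required in the top lists, and pooled candidates in the whole lists. Optimal peaks gave 3.33% (all), 3.33 to 5% (Or), 1.67% (Gr) and 3.33 to 5% (Ir), with 22.3 to 24.6% of all genes. Pooled candidates gave 11.7 to 12.8% (all), 13.3 to 16.7% (Or), 10 to 11.7% (Gr) and 10 to 13.3% (Ir), with 35.2 to 37.7% of all genes. The mean share over the replicates was 5.93% in the top lists and 29.3% in the whole lists. In the whole replicate lists, summits per 100 kb averaged 9.03 (8.39 to 9.71 leaving out 1 replicate each) at receptor genes and 23.0 at all genes, and 3.60 and 20.8 inside them. In the top lists they averaged 1.36 at receptor genes and 6.77 at all genes. Of 8 optimal peaks, all 3 replicates covered 8 at 50% overlap, 5 at 80% overlap, and 5 with lists of equal length. Counting any overlap of the peak moved no share by more than its interval. The replicate number pairs no groups of samples, since the series has 1 group, and the paired tests set sets of genes against each other within a replicate. The cause of these shifts was not tested. With 60 genes a family, 1 gene moves a share by 1.67 percentage points, and 3 replicates cannot give an exact p below 0.25.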

Other observations

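Genes of related families that are not receptors of the set were counted the same way. Of 51 odorant-binding protein genes, which encode small carrier proteins of the sensillum fluid, 4 had an optimal summit within 1 kb (7.84%, Wilson interval 3.09 to 18.5%), and these were Obp56f, Obp83cd, Obp83g and Obp99b. Obp83g and Obp99b had pooled ranks of 1709 and 1736, among the strongest near any chemosensory gene here. Of 29 pickpocket genes, which encode sodium channels of the DEG/ENaC family, ppk6 and ppk27 had one (6.90%, 1.91 to 22.0%). Of 12 ionotropic glutamate receptor genes, the relatives of the Ir genes that act at synapses, Nmdar1 and Nmdar2 had one (16.7%, 4.70 to 44.8%). The last interval includes the 28.3% of all protein-coding genes, and the same measure gave 4.44% for the 180 receptor genes. Pooled candidates were within 1 kb of 35.3% of the odorant-binding protein genes, 41.4% of the pickpocket genes and 50% of the glutamate receptor genes, against 23.9% of the receptor genes and 45.5% of all genes.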
